A study of Arabidopsis thaliana with 12 samples.

Results

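The genes described here are those of named array features whose signal was lower in red than in white light in every one of 3 comparisons of like-numbered samples. Intensities were quantile-normalized over 12 arrays and transformed as log2(intensity + 0.054). Arrays 1 and 2, 3 and 4, and 5 and 6 of each light condition were averaged, because consecutive arrays gave nearly the same profile, and each average is called a pair below. A gene was a member when the red minus white difference was below -0.5 in each of the 3 pairs. Of 691 genes on features annotated with 1 gene, 44 met this threshold, a share of 6.37%. Of these, AT1G29070, a gene of a plastid ribosomal protein, and GH9B12, a glycosyl hydrolase gene, were set aside because the rule leaves them out by name or family, and 42 members remained. The members were thus chosen by the measured red and white values themselves, so their lower signal in red light is a description, and counts from a fit of the same contrast are given below for completeness only. With the sign turned round, 53 of the 691 genes lay above 0.5 in each pair, a share of 7.67%, so the members were not the larger side of the table. Over all 3438 rows of the table, 6.78% lay below -0.5 and 7.3% above 0.5 in each pair.

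One set of plants was wild-type Arabidopsis thaliana of the Landsberg ecotype that spent 48 hours in red light at 200 µE, where µE is a measure of photon flux. It was compared with wild-type Landsberg plants under white light at 20 µE for 48 hours. Both conditions had 6 arrays of total RNA, taken as 3 samples of 2 near-duplicate arrays each. The labels give neither plant age, tissue nor earlier light, and they do not say which plants or extracts lie behind an array, so the spread between samples may be technical in part. Light colour and light level differed together and cannot be told apart. In RNA from whole samples, fewer cells of a type and less RNA per cell cannot be told apart either.

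Light acts on plant gene expression by several routes. Red light is absorbed by phytochromes, photoreceptors that move to the nucleus and change the stability of transcription factors, and by chlorophyll, so that it also drives photosynthesis and the redox and sugar signals that follow from it. Many nuclear genes whose products work in the chloroplast respond to both routes. The members form a group by their measured values alone and not a pathway. The annotation tables used here give 2 of the 42 a symbol other than the locus code, SECE1 and XERICO, against 97 of the 691 genes with a symbol or a worded synonym. Roles given below for other loci are background from general knowledge of Arabidopsis, stated for 12 members in all. The remaining 30 are given by locus code, AT3G13150 with its family. A role may be known for some of these, so the counts by role may not be complete.

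The array medians on the deposited scale were 0.233 to 0.471 for red and 0.237 to 0.289 for white arrays. Between 13.8% and 17% of features were listed at 0 on a red array, and between 11.4% and 13.6% on a white array. Near-duplicate arrays had rank correlations of 0.91 to 0.989, and arrays of 1 condition that are not near-duplicates had 0.641 to 0.821. How far a signal stood above the local background cannot be read from the table, and precision is limited by how few arrays there are. Values below are normalized intensities unless a log2 difference is named, and log2 differences are always red minus white.

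Mean log2 differences of the 42 members ran from -2.29 to -0.63 with a median of -1.21, where the median over the 691 genes was -0.05. The 6 red arrays all lay below the 6 white arrays for 23 of the 42 members. This was so for 5.35% of the 691 genes, but the rule used the same contrast, so nothing is read from that excess. For 30 members the 3 red pair means all lay below the 3 white pair means, which was so for 9.12% of the 691 genes. In a limma fit of the 6 pair means, 0.116% of the 3438 rows passed a Benjamini-Hochberg adjusted p of 0.05 (4 rows, of which 3 were lower in red), and 0 of the 42 members did. At an unadjusted p under 0.05 limma had 26 of the members and 475 of the 3438 rows. The fit uses the same pair means as the rule, so the members' share at an unadjusted p follows from how they were chosen and supports nothing. A fit with pair number as a block called 0 rows after adjustment.

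The gene AT1G63720 had the tightest red values of the leading members. Its red pair means were 0.227, 0.263 and 0.193, against white pair means of 0.647, 0.941 and 0.873. The highest red array read 0.275 and the lowest white array 0.603, so the arrays of the conditions did not overlap. Its 3 log2 differences were -1.32, -1.65 and -1.90, a mean of -1.62 ± 0.29 (SD, n = 3 pairs), or 3.08-fold lower in red light on the log2(intensity + 0.054) scale.

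AT5G05330 encodes a protein with an HMG box, a DNA-binding fold of chromatin proteins. It averaged 0.186 ± 0.187 in red and 0.825 ± 0.18 in white light (SD over pair means, n = 3). Red arrays 1 and 2 read 0.356 and 0.394, red arrays 3 and 4 read 0.182 and 0.183, and red arrays 5 and 6 were listed at 0. White arrays 1 to 6 read 0.804, 1.07, 0.961, 0.88, 0.681 and 0.552, all above every red array. The log2 differences were -1.20, -2.04 and -3.63, and the last of these depends on the pseudocount because its red arrays were at 0.

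In AT1G02020 pair 1 and not pair 3 had the largest difference. Its red pair means were 0.247, 0.395 and 0.515, against white pair means of 2.2, 1.83 and 0.915. The log2 differences were -2.92, -2.07 and -0.80, with white arrays 5 and 6 the lowest of the white arrays and red array 6 the highest of the red ones at 0.633. The 6 arrays of each condition did not overlap.

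AT2G04360 was lowest on red arrays 1 and 2, at 0.0258 and 0.0487, and read 0.121 to 0.212 on the other red arrays. Its white arrays read 0.356 to 0.64. The log2 difference was -2.90 in pair 1, -0.96 in pair 2 and -1.27 in pair 3, so that the mean of -1.71 became -1.12 without arrays 1 and 2 of both conditions. With the pseudocount multiplied by 4 it was -1.06.

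**Figure D1:**
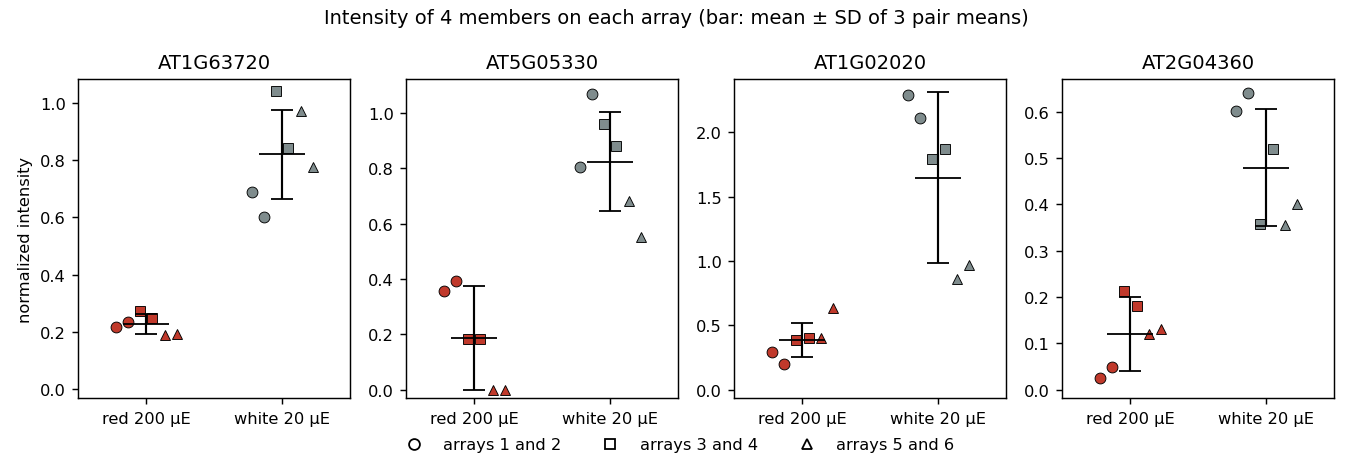
Normalized intensity (linear axis, arbitrary units) of AT1G63720, AT5G05330, AT1G02020 and AT2G04360 on the 6 red arrays (left) and 6 white arrays (right) of each panel, with symbols for arrays 1 and 2, 3 and 4, and 5 and 6 and bars for the mean ± SD of 3 pair means. In each panel all red points lie below all white points, and AT5G05330 is at 0 on red arrays 5 and 6.

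Of the 12 members with a stated role, 6 have products that work in plastids, and their mean differences ran from -2.29 to -0.82. AT5G17630 encodes a transporter of the plastid envelope that exchanges xylulose phosphate for inorganic phosphate. It read 0.0274 on red array 1 and was listed at 0 on red arrays 2 to 6, whereas white arrays read 0.452, 0.267, 0.164, 0.161, 0.179 and 0.235. Its log2 differences of -2.60, -2.003 and -2.26 were close to each other, but their size rests on the pseudocount. The mean of -2.29 was -1.03 with the pseudocount multiplied by 4 and -3.89 with it divided by 4.

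SECE1 encodes a subunit of the Sec translocase, which moves proteins into or across thylakoid membranes. Its red pair means were 0.842, 0.941 and 0.288, against white pair means of 1.63, 2.26 and 0.903. Arrays 5 and 6 were low in both conditions, and the red pair means overlapped with the white ones. Within each pair the red value was the lower one, with log2 differences of -0.92, -1.22 and -1.48.

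AT2G46910 and AT5G19940 encode plastid lipid-associated proteins of the fibrillin family, which are found in plastoglobules and thylakoids. AT2G46910 read 0.429, 0.518, 0.499 and 0.447 on red arrays 1 to 4 and was listed at 0 on red arrays 5 and 6, against 0.75, 0.918, 0.717, 0.689, 0.427 and 0.353 on white arrays 1 to 6. Its mean log2 difference of -1.44 came mostly from pair 3, at -3.04, and was -0.64 without arrays 5 and 6 of both conditions. AT5G19940 had red pair means of 0.151, 0.0403 and 0.189, against white pair means of 0.287, 0.228 and 0.375. These did not overlap, and its largest difference in size was that of pair 2, at -1.60.

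AT3G02450 encodes a protein related to the FtsH proteases of plastid membranes. It averaged 0.124 ± 0.0787 in red and 0.243 ± 0.0964 in white light (SD over pair means, n = 3), and the pair means of the conditions overlapped. AT5G16230 belongs to the acyl carrier protein desaturases, which put double bonds into fatty acids in plastids. It had red pair means of 0.155, 0.118 and 0.179, against white pair means of 0.245, 0.276 and 0.458, and its 6 red arrays lay below its 6 white arrays. Of the 6 plastid members, AT5G17630 and AT5G16230 were the 2 whose arrays did not overlap, which the rule favours.

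Products of another 4 members act in regulation, and the arrays of all 4 did not overlap between the conditions. XERICO encodes a small RING-type protein whose overproduction is known to raise abscisic acid levels and drought tolerance. Its red pair means were 3.03, 4.22 and 1.56, against white pair means of 4.84, 8.36 and 5.63. The highest red array read 4.27 and the lowest white array 4.48, so the separation was narrow, and the log2 differences were -0.67, -0.98 and -1.81, the largest in size in pair 3.

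AT3G25840 encodes a kinase related to the splicing-associated kinase Prp4, and AT1G67820 a protein phosphatase of type 2C. AT3G25840 averaged 0.299 ± 0.096 in red and 0.933 ± 0.206 in white light (SD over pair means, n = 3). Its differences of -1.63, -1.40 and -1.50 had the least spread among the members below -1 in each pair, with an SD of 0.11. AT1G67820 varied little among red samples, with pair means of 0.21, 0.222 and 0.241, against 0.597, 0.708 and 0.431 in white light. The HMG-box gene AT5G05330, described above, is the remaining member with a regulatory product.

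For 2 further members a role in mitochondria or membrane lipids is stated here. AT4G39690 encodes a mitofilin-like protein of the inner mitochondrial membrane. It read 4.52, 4.91, 4.7, 4.11, 1.87 and 1.74 on red arrays 1 to 6, against 7.16, 8.22, 7.66, 7.29, 5.47 and 5.37 on white arrays 1 to 6. Arrays 5 and 6 were the lowest of both conditions, and the log2 difference was -0.70, -0.76 and -1.56 in pairs 1 to 3. AT4G26770 encodes an enzyme that makes CDP-diacylglycerol, a precursor of phospholipids. It had red pair means of 0.232, 0.622 and 0.202, against white pair means of 1.11, 0.987 and 0.672, with the smallest difference in size in pair 2, at -0.62. The arrays of both genes did not overlap between the conditions, which the rule favours.

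**Figure D2:**
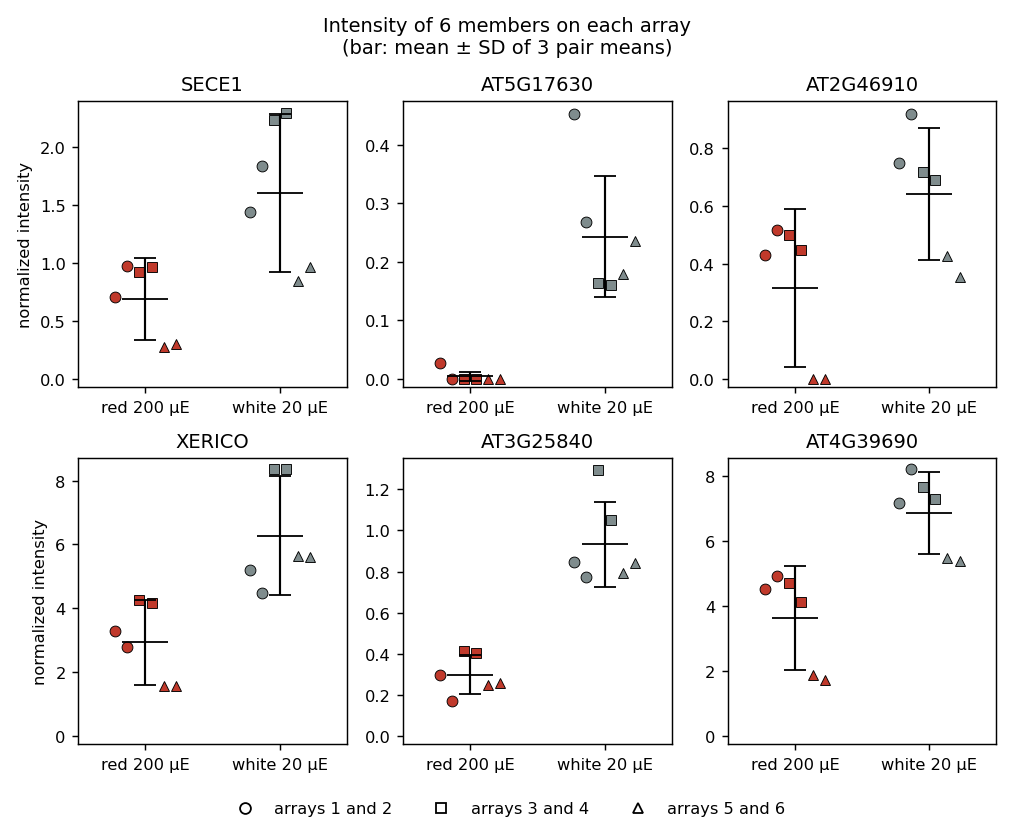
Normalized intensity (linear axis, arbitrary units) of SECE1, AT5G17630, AT2G46910, XERICO, AT3G25840 and AT4G39690 on 6 red arrays (left) and 6 white arrays (right), with bars for the mean ± SD of 3 pair means. SECE1 and AT2G46910 overlap between the conditions because their white arrays 5 and 6 are low, and AT5G17630 is at 0 on 5 of the 6 red arrays.

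The rule favours genes with separate arrays, and among the 30 members given by locus code 15 had arrays that did not overlap between the conditions. Apart from AT1G63720, AT1G02020 and AT2G04360, these were AT5G59060, AT3G47100, AT1G04420, AT3G09490, AT1G11730, AT3G59300, AT3G44020, AT2G36480, AT5G26850, AT3G26580, AT5G06790 and AT1G34270. AT3G26580 read 2.82 to 3.66 on the red arrays and 4.3 to 9.84 on the white arrays. AT3G44020 varied more in red light, with pair means of 2.01, 1.18 and 2.28, than in white light, with 3.71, 3.96 and 3.57. AT3G59300 had red pair means of 0.164, 0.264 and 0.2, against white pair means of 0.511, 0.474 and 0.504, although white arrays 3 and 4 read 0.609 and 0.34.

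Other genes of this set differed from each other in which pair carried the difference. AT5G59060 had log2 differences of -2.54, -2.40 and -0.61, with white arrays 1 and 2 at 1.17 and 1.26 and white arrays 5 and 6 at 0.348 and 0.322. AT1G11730 likewise had -1.66 in pair 1 and -0.82 in pair 3. AT3G47100 had its largest difference in pair 2, at -1.97, where red arrays 3 and 4 read 0.011 and 0.0122, below the pseudocount. AT1G04420 had its smallest there, at -0.94. AT2G36480 and AT5G06790 were among the most even, at -1.01, -1.26 and -0.88 and at -0.95, -0.69 and -1.03. AT3G09490, AT5G26850 and AT1G34270 had mean differences of -1.24, -0.97 and -0.83.

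The other 15 members given by locus code had overlapping arrays. AT1G70350 and AT2G25640 had nearly the same log2 differences, at -0.96, -1.79 and -3.04 for AT1G70350 and at -0.95, -1.72 and -3.04 for AT2G25640, from different values. AT1G70350 was listed at 0 on red arrays 5 and 6 and had white pair means of 0.803, 1.15 and 0.391. AT2G25640 was above 0 on every array, with red pair means of 0.501, 1.21 and 0.308, against white pair means of 1.02, 4.13 and 2.91. Its overlap arose because the second red pair lay above the first white pair.

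AT4G05070 had red pair means of 1.01, 0.37 and 0.0399, against white pair means of 2.05, 0.775 and 0.813. Its mean log2 difference of -1.78 was -0.996 without arrays 5 and 6 of both conditions. AT1G32220 was listed at 0 on red arrays 5 and 6 and differed by -1.09, -1.46 and -2.06. In AT3G06570 the third pair was the highest of both conditions, at 1.57 in red and 4.82 in white light, and the difference there was -1.58. In AT1G71910 the near-duplicate red arrays 3 and 4 disagreed, at 1.17 and 0.464. AT3G56250 averaged 0.0484 ± 0.0301 in red and 0.184 ± 0.0659 in white light (SD over pair means, n = 3), so its red mean lay below the pseudocount, as did that of AT5G17630.

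The mean differences of AT4G37230, AT1G01500, AT3G61870, AT1G32730 and AT4G24090 were -1.22, -1.20, -1.14, -1.05 and -0.84, and all of these genes had overlapping pair means. AT1G01730 had the smallest mean difference of the 42, at -0.63 ± 0.10 (SD, n = 3 pairs), with red pair means of 0.927, 0.967 and 0.4, against white pair means of 1.44, 1.44 and 0.709. The tables used here hold no gene descriptions, so no gene could be set aside as a pentatricopeptide repeat gene from them. AT3G13150, which belongs to that family by general knowledge, is therefore still among the 42, at -0.53, -1.26 and -1.98, and it enters every count and median given for them.

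**Figure D3:**
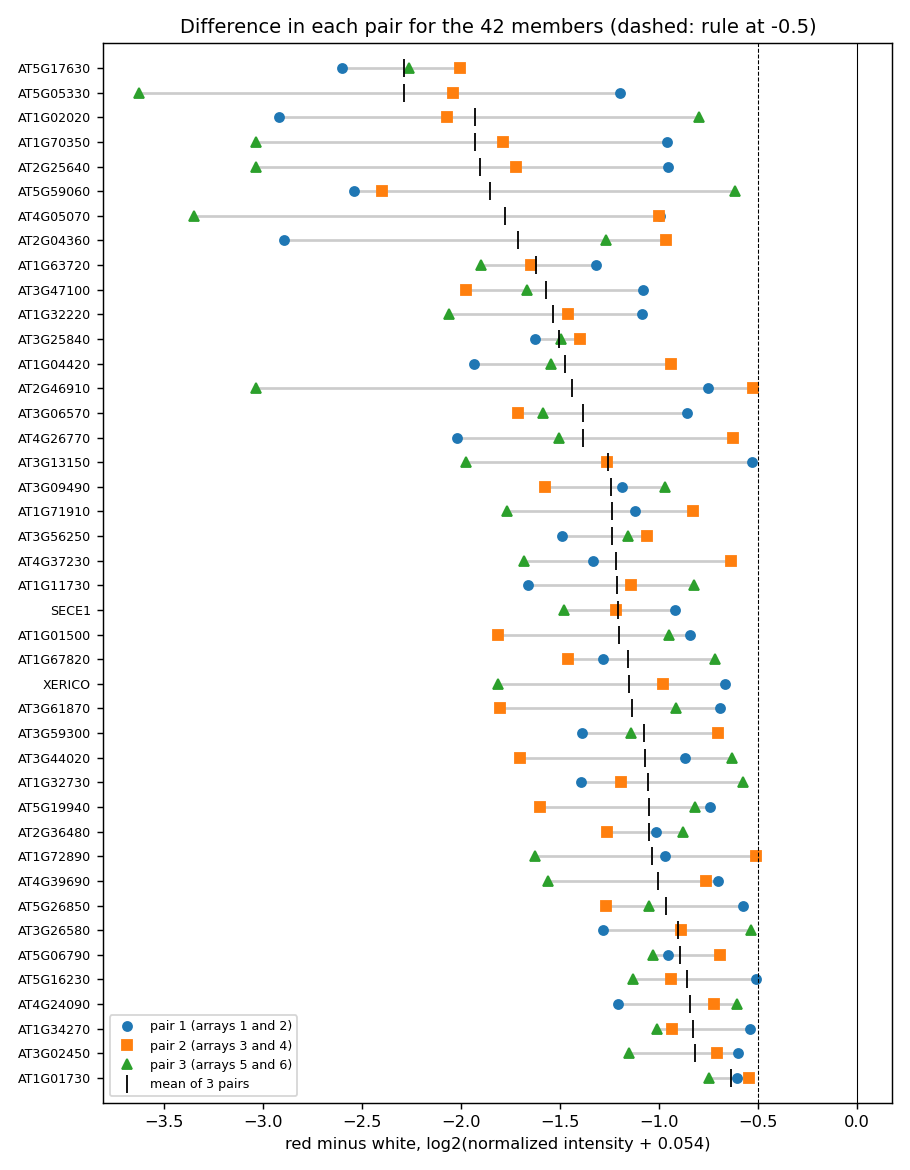
Red minus white difference on the log2(normalized intensity + 0.054) scale in pairs 1, 2 and 3 (symbols) and their mean (bar) for each of the 42 members, ordered by the mean from -2.29 to -0.63, with the rule's threshold at -0.5 as a dashed line. AT3G25840 and AT1G01730 have differences close to each other. AT5G05330, AT1G70350, AT2G25640, AT4G05070 and AT2G46910 have a pair 3 far below the other pairs.

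At the edge of the rule, the members just inside the threshold were AT1G72890, AT5G16230 and AT2G46910, whose differences smallest in size were -0.509, -0.511 and -0.524. The genes just outside it were AT1G50510, SIRB and AT3G03890, at -0.495, -0.487 and -0.485. AT1G50510 and AT3G03890 had larger differences in the other pairs, below -1 in both cases, whereas SIRB had -0.52, -0.51 and -0.49. At the other end, 7 members lay below -1 in each pair, namely AT5G17630, AT5G05330, AT1G63720, AT3G47100, AT1G32220, AT3G25840 and AT3G56250.

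The members did not share one pattern over the pairs. The difference largest in size was in pair 1 for 13 members, in pair 2 for 10 and in pair 3 for 19. The gap between the largest and the smallest difference of a member had a median of 0.86 and ran from 0.20 to 2.51. It was over 2 for AT5G05330, AT1G02020, AT1G70350, AT2G25640, AT4G05070 and AT2G46910. In 4 of these 6 members, AT5G05330, AT1G70350, AT4G05070 and AT2G46910, a red array of pair 3 was listed at 0.

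Pair 3 was the lowest of its condition for many members. The lowest red pair mean was that of pair 3 for 23 of 42 members and the lowest white pair mean for 24, against 36.5% and 35.7% of the 691 genes. Of the 252 red values of the members 18 were at 0, or 7.14%, against 16.1% of the red values of all 691 genes. Of these 18, 15 were on red arrays 5 and 6, which held 37.2% of the red zeros of the 691 genes. All 10 members with a red array at 0 had one there. The red values are among those the rule used, so nothing is read from where the zeros fall. No white value of a member was at 0, against 13.4% of the white values of all 691 genes, which the rule favours since a gene at 0 in white light cannot lie lower in red.

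Red samples varied more than white samples on the log2 scale for 29 of the 42 members, or 69%, against 48.2% of the 691 genes. The median SD over the 3 pair means was 0.69 in red and 0.42 in white light on that scale. On the linear scale the order turned, with a larger SD in red than in white light for 10 of the 42. The rule takes genes with low or zero red values, where the log2 scale widens differences, so neither count is free of it. Near-duplicate arrays of a member differed by a median of 0.13 on the log2 scale, against 0.14 for the 691 genes. A log2 difference of over 1 between near-duplicates occurred for 7 members, namely AT5G59060, AT4G05070, AT1G32220, AT3G13150, AT1G71910, AT1G72890 and AT3G02450. The share of the 691 genes with such a difference is not given here, so nothing is read from this count.

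The differences depended on how arrays were put on a common scale. On the deposited scale the median difference over all rows was 0.20, and it was 0.54 in pair 1, 0.29 in pair 2 and -0.01 in pair 3. All 42 members kept a negative mean difference on that scale, with a median of -0.80, but 18 of them were higher in red than in white light in pair 1, 6 in pair 2 and 0 in pair 3. In 22 members all 3 pairs remained below 0. Below -0.5 in each pair without normalization were 7 members, namely AT5G17630, AT1G02020, AT5G59060, AT3G47100, AT3G25840, AT3G56250 and AT1G01500. AT1G01730 had the mean difference closest to 0 there, at -0.12, with 0.45, 0.12 and -0.93 in pairs 1 to 3. With arrays scaled to the same median the members' median was -1.19 and 33 of the 42 met the threshold.

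**Figure D4:**
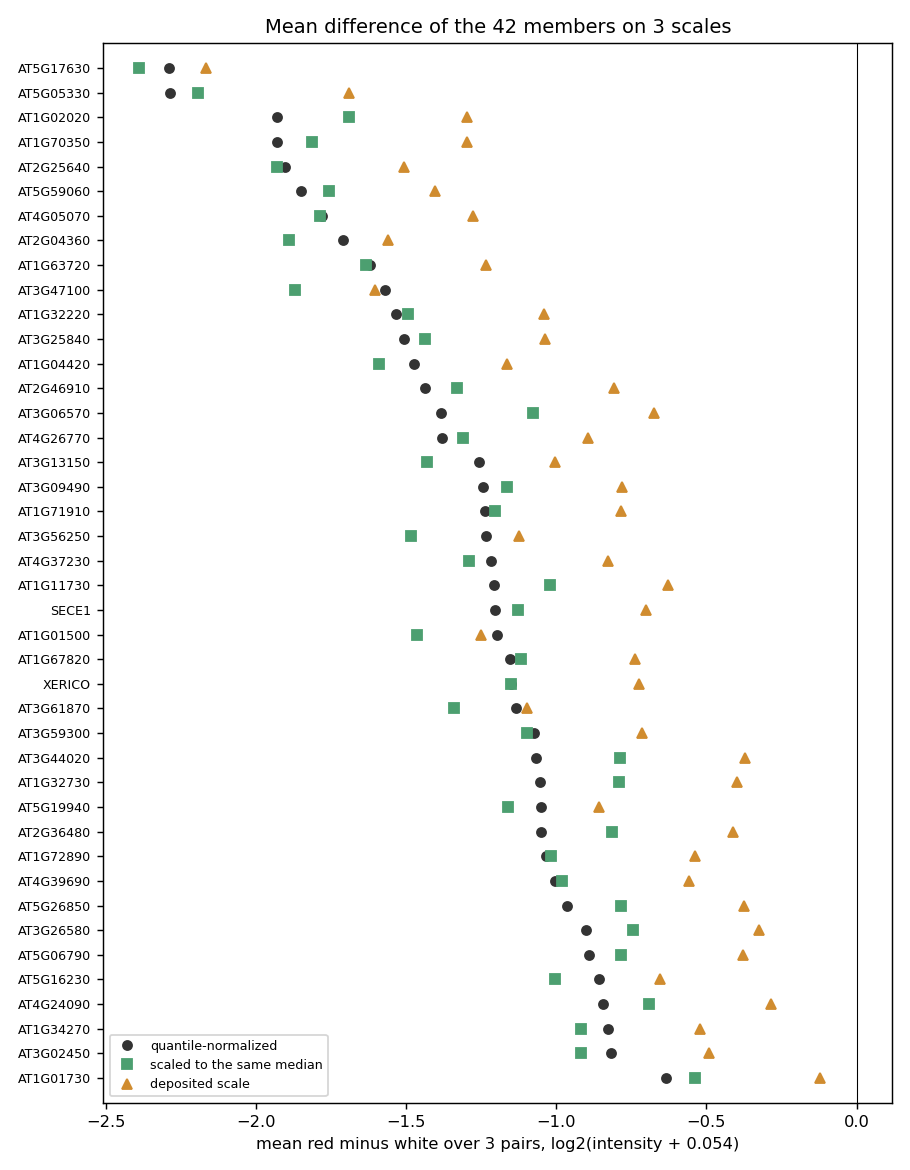
Mean red minus white difference over 3 pairs on the log2(intensity + 0.054) scale for each of the 42 members after quantile normalization, after scaling to the same median and on the deposited scale. All points lie below 0, and the deposited values lie closest to 0 for most members, with AT1G01730 at -0.12.

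A few readings lie outside what the rule used. The loci of 4 members also occur on features annotated with several genes, whose signal cannot be given to 1 of them. None of these 4 features met the threshold in each pair. The feature shared by AT5G16230 and other genes differed by -1.49, -0.86 and 1.28 in pairs 1 to 3, and that shared by AT2G46910 by -1.31, 0 and -0.39. Those shared by AT5G06790 and AT1G67820 differed by 0.31, 0 and -0.42 and by 0.45, -0.14 and -0.36, with both signs in each. A difference of exactly 0 can come from arrays listed at 0, where no change can be read.

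The members were spread over the genome. By locus code, 13 lay on chromosome 1, 5 on chromosome 2, 11 on chromosome 3, 6 on chromosome 4 and 7 on chromosome 5, or 7.47%, 4.07%, 8.46%, 5% and 4.9% of the genes with a named feature there. No pair of members were direct neighbours in the RefSeq gene order. The closest were XERICO and AT2G04360, with 6 protein-coding genes between them. Of the genes next to a member 1 was on a named feature, AT3G44050 beside AT3G44020, and it differed by -0.43, -0.62 and 0.13 in pairs 1 to 3. With so few, the lack of direct neighbours among the members says little.

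Lists drawn up by key words could say little about the group. Symbols and synonyms matched 5 genes for chloroplast and photosynthesis, 4 for DNA binding and transcription, 3 for kinases and phosphatases, 6 for protein folding and breakdown, 7 for oxidoreductases and 12 for other enzymes, and 0 of these were members. The median log2 differences of these lists were 0.07, 0.56, -0.04, -0.12, -0.33 and -0.10. The list of other enzymes holds GH9B8, GH9B11, GH9B12 and GH9B16, which the rule leaves out, so these could not be members. GH9B12 met the threshold before it was set aside. Lists for membrane transport, for RNA and translation and for uncharacterised genes matched 0 genes, because most loci carry no name in the tables used.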

How the data were processed

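The deposited table gives 1 intensity value on a linear scale for each of 3439 features on 12 arrays. The steps by which the authors made these deposited values are not stated in any label or header used here. They were listed as from 0 upwards, with array medians that differed up to 2.02-fold. Feature names come from GEO's platform annotation, updated through Entrez identifiers in the RefSeq table of TAIR10.1, where 690 of 692 features with 1 gene matched. Another 870 features are listed with several genes and 1877 are not listed. No sequences were used here.

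Intensities were quantile-normalized and log2 transformed with a pseudocount of 0.054, percentile 5 of the positive values. Features of 1 gene were averaged, which left 3438 rows. The rule and the summaries were run in Python 3.11.15 with pandas 2.3.3. The fit over all rows used limma 3.58.1 under R 4.3.3, with lmFit, eBayes and an adjusted p under 0.05. It was tested first on simulated data with less spread than the members showed. That checks the code and not how many real differences the fit can find. The rule compares like-numbered samples as pairs. Deviations of same-numbered pair means from their group means correlated at 0.125, 0.466 and 0.376, each over a chosen limit of 0.1. Correlations between differently numbered samples are not given here, so these values do not show that like-numbered samples belong together. The main limma fit had no pair term, and the pair number entered as a block in an alternative only. The labels do not state that like-numbered samples belong together. The members and lists were chosen with earlier results of these data known. Named genes were the 4 leading genes given with the rule, members with arrays that do not overlap, the 12 with the largest mean difference in size, the 3 on either side of the threshold, and others by role. The key word lists were matched on symbols and synonyms, since descriptions are not in the tables. Alternatives covered normalization, pseudocount, dim rows, averaging, threshold, left-out arrays and the block.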

Additional observations from a re-analysis of the deposited data

How the results depend on the processing

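The number of members, 42, was 10 on the deposited scale (7 of them among the 42), 81 with a threshold of -0.25 and 7 with one of -1. It was 40 with arrays scaled to the same median (33 shared), 28 with the pseudocount multiplied by 4, and 39 to 46 when 1 array was left out. In 21 alternatives for each member at most, 877 recomputed mean differences were all below 0, so none turned sign. The rule had kept only genes lower in red in each pair of these arrays. Leaving out a pair could therefore not turn a mean, and leaving out dim rows did not change it. Without 1 array or with another pseudocount there was little room for a turn. Nothing is read from the sign in these settings. The deposited and median-scaled values were less bound by the rule, but came from the same arrays. The mean moved by over 1.5 times for 22 members on the deposited scale, 17 with the pseudocount multiplied by 4 and 1 with it divided by 4. The same held for AT4G05070 and AT2G46910 without arrays 5 and 6 of both conditions and AT2G04360 without arrays 1 and 2, an alternative chosen after seeing the data. Leaving out 1 array moved a member's mean to between 0.761 and 1.24 times its value.

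The count of 4 rows past the adjusted threshold in limma was 27 on the deposited scale, 1 after scaling to a common median, 2 with a pseudocount multiplied by 4 and 1 without the dimmest 25% of rows. With the pair number as a replicate block it was 0, with 645 rows at an unadjusted p under 0.05. With 12 arrays as separate samples it was 564, and it was 105 when near-duplicates were a random block. The p values of both of these fits are too small or can be, because near-duplicates enter them as partly independent. Leaving out 1 array gave 0 to 5 rows, with 0 without white array 1 and 2 without white array 5. The causes of these differences were not tested. Signal near 0 in red light limits how large a difference can be read for the 10 members with a red array at 0.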
